A study of Homo sapiens with 12 samples.

Results

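The untreated arm of a study of N6-methyladenosine (m6A) is described here, with RNA from an m6A immunoprecipitation (IP) set against the RNA that went into it (input). The cells were HepG2, a hepatocellular carcinoma line that is widely used as a model of hepatocytes. The control cells are labelled only as control for toosendanin, a plant triterpenoid, and their sources name no vehicle, dose or time. The labels list 3 IP and 3 input control libraries, made with a stranded mRNA kit. The deposited table holds 1 count per region for each kind, summed by the authors over the control libraries, so no spread between libraries could be computed and no test between samples was possible.

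Members were the regions that carry a single gene label and at least 50 control counts in IP and input together. They numbered 39728 of 46178 regions in the table, spread over 11697 genes that had 3 regions each at the median. Left out were 5533 single-gene regions with fewer counts and 917 regions with several genes. The count totals over the whole table were 42316089 for IP and 34131862 for input, which are totals over listed regions and not the depth of the libraries. Each count was divided by its column total, and the log2 of the IP share over the input share is called the log2 ratio here. A value of 1 means 2-fold more in IP than in input. The 95% intervals printed are exact (Clopper-Pearson) intervals that cover counting error only. With no replicates to test, a region or gene is called higher or lower in IP when its log2 ratio is at least 1 or at most -1.

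Background: m6A is placed on nascent mRNA by a complex built around METTL3 and METTL14, removed by the demethylases FTO and ALKBH5, and bound by readers such as the YTH proteins, which can speed mRNA decay. In mammalian mRNA it is known to gather in long internal exons and around stop codons, and to be sparse in short exons flanked by splice junctions. Transcripts of transcription factors and zinc finger genes are known as often methylated, and those of ribosomal proteins and other housekeeping genes as sparsely methylated. The deposited table gives neither the position nor the sequence of a region, so where in a transcript a region lies is not analysed here.

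The labelled cell type was checked on its markers. All 11 hepatocyte markers were measured, with 8802 (TTR) to 1225310 (APOB) control counts each. Of markers of other cells, 3 of 13 for blood and immune cells (CD68 and LYZ among them), 0 of 7 for endothelium and 1 of 7 for fibroblasts and stellate cells (ACTA2) had a region that met the rule. LYZ, which encodes lysozyme, had 132978 counts, more than the hepatocyte marker TTR, and a log2 ratio of -0.37. A gene without a region in the table is not thereby shown to be silent.

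The IP differed from input by modest factors in most regions. The log2 ratio had a median of -0.13 and 5th and 95th percentiles of -1.18 and 1.09. The range ran from -2.06 to 4.25. At least 2-fold higher in IP were 2634 regions (6.63%), and at least 2-fold lower were 3692 (9.29%). At a 4-fold limit, 64 regions were higher and 1 was lower. The 2-fold enriched regions held 6.94% of all IP counts against 3.06% of all input counts. The 2-fold depleted ones held 5.49% of IP counts against 13.7% of input counts.

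**Figure D1:**
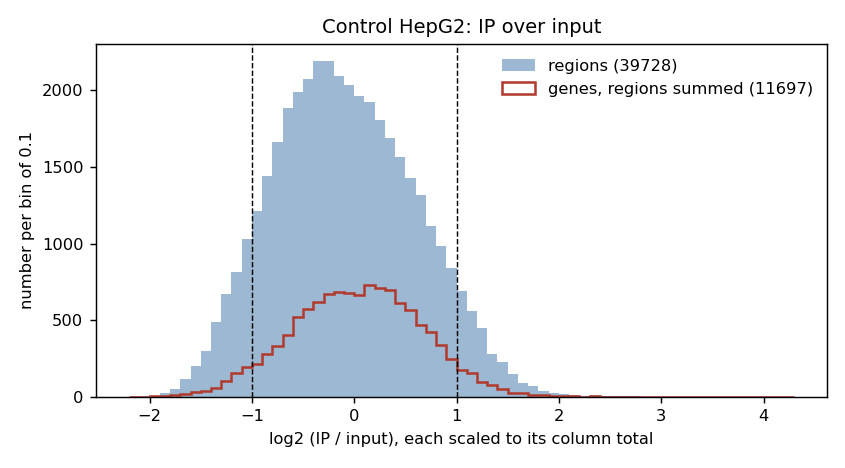
Number of regions (filled bars) and of genes with their regions summed (red line) per bin of 0.1 of the log2 ratio of IP over input in control HepG2 cells. Dashed lines mark 2-fold. Most regions lie within 2-fold of equal shares, with 2634 of 39728 at or beyond the right line and 3692 at or beyond the left one.

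The balance of these calls depends on how the columns are scaled. When the median region was set to 0, a shift of 0.13, the share of higher regions among all calls went from 41.6% to 60.2%. For genes it went from 50.9% to 72.1%. Values of genes and lists are therefore read mainly against the median of all genes, 0.04, a comparison that other column totals do not alter. Where a value is set against equal shares or a 2-fold limit, the scaling still matters.

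For each gene, the counts of its regions were summed. At least 2-fold higher in IP were 643 of 11697 genes (5.5%) and at least 2-fold lower were 621 (5.31%). The ratio moved with the number of counts. Genes with 50 to 99 counts had a median of 0.37, with 18.3% higher and 0.988% lower, and genes with 5000 or more counts a median of 0.06, with 2.39% higher and 5.93% lower. Regions near the minimum also stood high: 1458 regions with 50 to 59 counts had a median of 0.27, and 1621 regions just outside, with 40 to 49 counts, a median of 0.41. The relation had no single direction, since regions with 200 or more and under 500 counts had a median of -0.29 and those with 5000 or more one of 0.17. The sources used here do not say how regions were called, and the part of that step in these values was not tested.

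Counts also set the precision. The interval reached a median of 0.85 to either side in regions with 50 to 59 counts, 0.27 at about 500 counts and 0.08 at about 5000. The regions named next are therefore taken from the 16178 regions with at least 500 counts, 1 per gene.

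The most enriched of them was a region of ASPH, which encodes an aspartate hydroxylase of the endoplasmic reticulum. It had 545 counts in IP and 89 in input, a log2 ratio of 2.30 (1.98 to 2.64). SGO2, whose protein guards cohesion at centromeres in dividing cells, followed with 648 and 110 counts, a log2 ratio of 2.25. ANKRD12, an ankyrin repeat protein of the nucleus, had 698 and 125 counts, a log2 ratio of 2.17. These regions stood at more than 4 times their input share, and their intervals lay wholly above the 2-fold limit.

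The other regions among the 15 most enriched ran from 2.05 down to 1.78. ZBTB10, a zinc finger factor, had 494 IP and 103 input counts (log2 ratio 1.95), and ZNF138, a zinc finger gene, had 477 and 101 (1.93). NFE2L3, a stress-related bZIP factor, had 1482 and 347 (1.78). CWC27, a splicing-associated prolyl isomerase, had 1169 and 275 (1.78), and TWISTNB, which encodes a subunit of RNA polymerase I, had 894 and 190 (1.92). The death receptor TNFRSF10A stood at 1.99, the apoptosis regulator TNFAIP8 at 1.78 and the prenyltransferase subunit PGGT1B at 1.78. CCDC122, a coiled-coil gene, stood at 1.83 and KANTR at 1.87. The 2 pseudogenes among them, GUSBP16 at 2.05 and GUSBP14 at 1.88, derive from the gene of beta-glucuronidase. They are near-identical copies, so how reads were shared between them is uncertain. In 13 of these 15 genes the sum over the gene was at least 2-fold higher, against 5.5% of all genes. The sum includes the picked region, which in TWISTNB held 894 of 940 IP counts, so it is no separate support. ASPH (0.34 over 9 regions) and TNFRSF10A (0.89 over 4 regions) were the exceptions.

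At any depth, the highest ratio belonged to a region of AKR1C2, a steroid reductase gene, with 402 IP and 17 input counts, a log2 ratio of 4.25 (3.56 to 5.05). AKR1C2 shares most of its sequence with its neighbours in the AKR1C family, and its counts are uncertain for that reason. It lies outside the rule for named regions and was chosen after its values were seen. HMGB1, a chromatin protein with many processed copies in the genome, had 55 and 3 counts in its highest region.

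**Figure D2:**
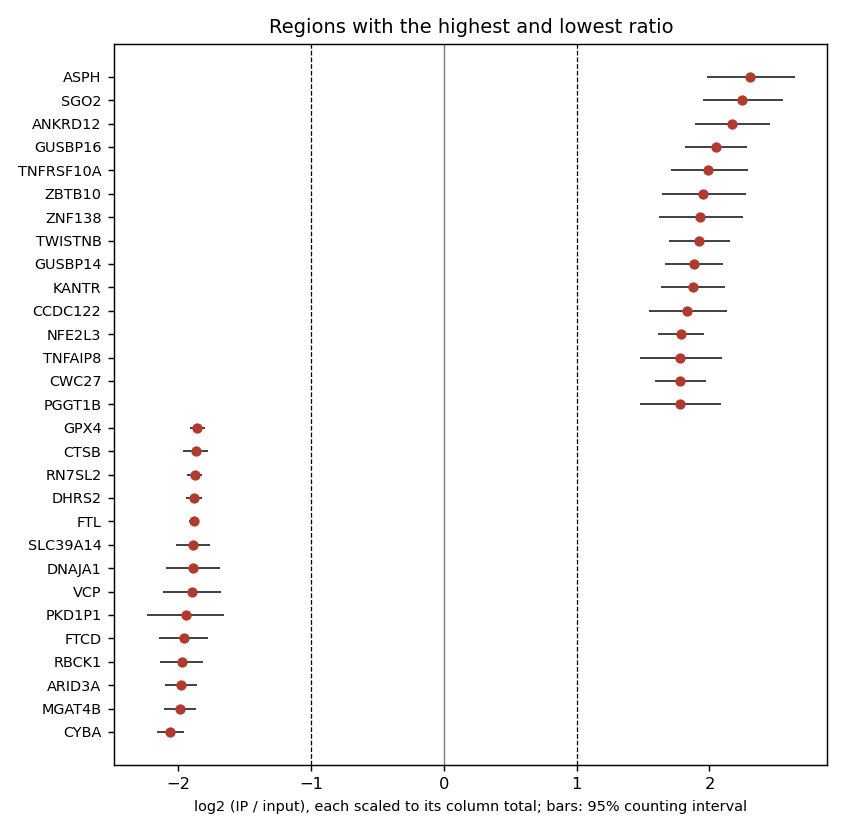
Log2 ratio of IP over input for the 15 regions with the highest ratio and 14 of those with the lowest among regions with at least 500 control counts, 1 per gene, with 95% counting intervals as bars. The enriched regions run from 1.78 (PGGT1B) to 2.30 (ASPH), the depleted ones from -1.86 (GPX4) to -2.06 (CYBA).

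Among the most depleted regions, that of CYBA, which encodes the p22phox subunit of NADPH oxidase, was lowest, with 966 IP counts against 3244 in input, a log2 ratio of -2.06 (-2.16 to -1.95). MGAT4B, which branches N-glycans, followed with 733 against 2346, at -1.99, and FTCD, a liver enzyme of histidine and folate metabolism, with 320 against 1004, at -1.96. FTL, the light chain of the iron store ferritin, had 9779 against 29079 counts (-1.88), and GPX4, the selenoprotein that reduces lipid peroxides, had 3477 against 10157 (-1.86). The dehydrogenase DHRS2 stood at -1.88 and the zinc transporter SLC39A14 at -1.89. The segregase VCP, which extracts proteins for breakdown, stood at -1.90, the cochaperone DNAJA1 at -1.89 and the ubiquitin ligase subunit RBCK1 at -1.97. The lysosomal protease CTSB stood at -1.87 and the DNA-binding protein ARID3A at -1.98. PKD1P1, a near-identical copy of part of PKD1, stood at -1.94, and its counts are uncertain. RN7SL2, an RNA of the signal recognition particle that RNA polymerase III makes, had 3190 against 9449 counts (-1.88). It too has a near-identical copy, RN7SL1, at -1.59 over the gene.

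The 15 lowest regions held a median of 3079 counts and the 15 highest a median of 758. The sum over a gene includes the picked region, and FTCD, FTL and RN7SL2 had no other region that met the rule. By that sum, 9 of the 15 genes with the lowest regions were at least 2-fold lower, against 5.31% of all genes. The other 6, among them SLC39A14 (0.07 over 4 regions) and DNAJA1 (0.23 over 3 regions), combined their lowest region with regions near or above equal shares.

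Whole genes with high counts gave other names at the enriched end. Of 2850 genes with at least 5000 counts, the highest (listed after their values were seen) included TCEAL8 at 1.53 (6264 IP and 1749 input counts) and SEC62, part of the translocon that imports secretory proteins, at 1.49 (26466 and 7615). TRUB2, a pseudouridine synthase, stood at 1.48, the deubiquitinase USP1 at 1.32, the RNA export adaptor PHAX at 1.32 and the splicing regulator NSRP1 at 1.32. At the other end, CYBA (-1.92), FTL and RN7SL2 (each -1.88), named above, were lowest, and GPX4 stood at -1.80. Of ribosomal protein genes, RPS2 stood at -1.82 (7189 and 20414 counts), RPS3 at -1.80 (14048 and 39564) and RPLP2 at -1.79 (17872 and 50022). The actin-severing protein gene GSN stood at -1.76 and RBP4, the plasma carrier of retinol, at -1.73.

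Zinc finger genes, most of which encode DNA-binding repressors, had the highest median of the lists examined. Of 363 measured genes with a ZNF symbol, 66 (18.2%) were at least 2-fold higher in IP and 1 was lower, with a median log2 ratio of 0.63, against 5.5%, 5.31% and 0.04 over all genes. At least 1 region with a 2-fold higher share was found in 190 of them (52.3%), against 17.7% of all genes. ZNF678 stood at 1.61 (208 IP and 55 input counts), ZNF43 at 1.52 (224 and 63) and ZNF429 at 1.45 (156 and 46). The members did not all lie high. Among genes with at least 200 counts, ZNF428 stood at -1.25 (500 and 956), ZNF219 at -0.83 and ZNF444 at -0.79. The median zinc finger gene had 788 counts, and over all genes with at least 500 and under 1000 counts the median ratio was 0.01.

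Other regulators lay above the median of all genes by less. Of 36 listed chromatin regulators with long transcripts, 35 were measured and 31 of them lay above it. Their median was 0.34, with 1 (2.86%) at least 2-fold higher and 0 lower, against 5.5% and 5.31% over all genes. KDM6B, a demethylase of histone H3 lysine residues, stood at 1.15 (2222 IP and 807 input counts), the chromatin remodeller ATRX at 0.93 (17216 and 7289) and ARID2, a SWI/SNF subunit, at 0.70. The lowest was the methyltransferase SETD1B at -0.33 (1490 and 1508). Within this list 16 genes (45.7%) had a region at least 2-fold higher, and 11 (31.4%) a region at least 2-fold lower, against 2071 (17.7%) and 2456 of all 11697 genes. By the median region of a gene in place of the sum, the median of the list was -0.03, against -0.10 over all genes.

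Forkhead factors, whose measured genes numbered 19, had a median of 0.37. At least 2-fold higher was 1 (5.26%) and lower 1, near the 5.5% and 5.31% over all genes. FOXA1, a pioneer factor of liver, stood at 0.71 (1173 IP and 580 input counts), and FOXP4 stood at -1.01 (2276 and 3690). The 14 measured protocadherin genes, which encode adhesion molecules, had a median of 0.53, with 2 (14.3%) at least 2-fold higher, on a median of 278 counts. With a minimum of 200 counts per region their median was 0.24. Some clustered protocadherins share exons, which leaves the counts of those genes uncertain. F-box genes, which choose substrates for ubiquitin ligases, had a median of 0.25 over 48 genes. FBXW7, which targets cyclin E and MYC for breakdown, stood at 1.36 (2433 and 765), and FBXO7 at -1.30 (422 and 838). Kinesins, the motors that walk on microtubules, had a median of 0.29 over 30 genes, with KIF20B at 1.04, KIF3A at 0.93 and KIF22 at -0.69.

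**Figure D3:**
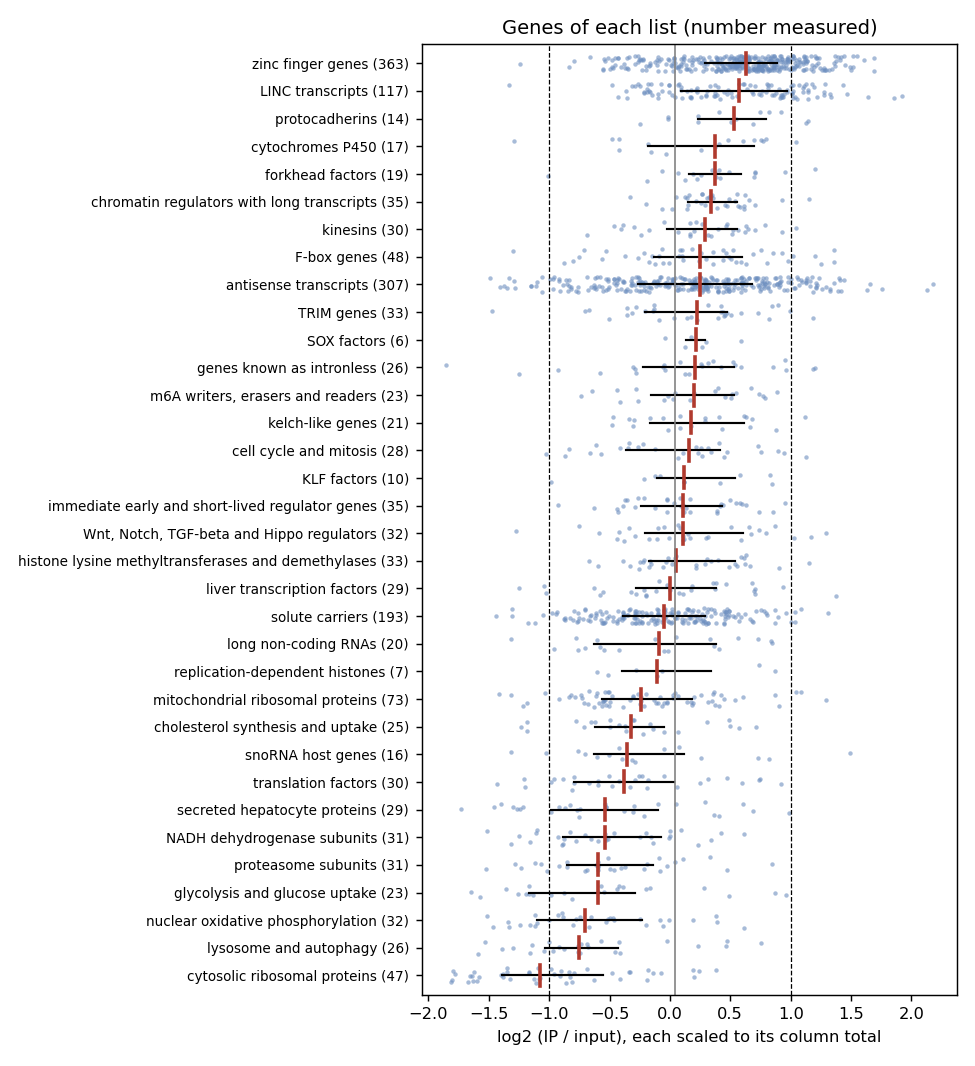
Log2 ratio of IP over input of every measured gene (blue points) by list, with the number measured in brackets. Red bars are medians and black lines the middle 50% of genes. The grey line marks the median of all 11697 genes (0.04) and dashed lines mark 2-fold. Zinc finger genes are at the top (0.63) and cytosolic ribosomal proteins at the bottom (-1.07).

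Cytosolic ribosomal protein genes had the lowest median of the lists with at least 5 measured genes. Of 51 listed, 47 were measured. At least 2-fold lower in IP were 24 (51.1%, against 5.31% of all genes) and 0 were higher, with a median log2 ratio of -1.07. RPL3, of the large subunit, had 53912 IP and 97747 input counts (-1.17). The group was not uniform. RPS24 stood at 0.38 (37611 and 23238 counts), RPL19 at 0.24 (212461 and 144811) and RPS6 at 0.20 (126189 and 88852), and 4 of the 47 lay above the median of all genes. These genes have many processed pseudogenes, so reads shared with copies make single values uncertain. Their median gene had 41107 counts, and over all genes with 5000 or more counts the median ratio was 0.06.

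Other housekeeping machines lay low as well. Their calls are read against the 5.31% of all genes that were lower and the 5.5% that were higher. Nuclear-encoded subunits of oxidative phosphorylation had a median of -0.71, with 10 of 32 measured genes at least 2-fold lower and 0 higher (37 listed). NDUFV1, of complex I, stood at -1.51 (2147 IP and 4948 input counts), CYC1, of complex III, at -1.47 and the ATP synthase subunit ATP5F1B at -1.34. NDUFB10, at 0.62 (6306 and 3320), was its highest member. Proteasome subunits, all 31 of them measured, had a median of -0.59, with 6 lower and 0 higher. PSMA7 stood at -1.52 (2434 and 5635) and PSMA4 at 0.85 (9785 and 4385), both subunits of the core particle's outer rings. Mitochondrial ribosomal proteins lay nearer the middle, with a median of -0.24, from MRPL41 at -1.41 to MRPL32 at 1.30. Of 73 genes, 5 (6.85%) were lower and 3 (4.11%) higher, near the shares over all genes.

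Translation factors lay on both sides. Their median was -0.38, with 3 of 30 measured genes (10%) at least 2-fold lower, against 5.31% of all genes, and 0 higher, against 5.5%. EIF3K stood at -1.44 (1536 IP and 3352 input counts), EIF5A at -1.21 and EIF1 at -1.20, and the elongation factors EEF2 at -0.81 and EEF1A1 at -0.42. EIF5B, which joins the ribosomal subunits, stood at 0.92 (40732 and 17395), EIF2S2 at 0.74 and EIF3A, the largest subunit of its complex, at 0.74 (164936 and 79639). The factors named are mostly those at the ends of the list. By the median region of a gene in place of the sum, the median of the list was -0.59, against -0.10 over all genes.

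Metabolic and lysosomal genes were mostly low. Over all genes, 5.31% were at least 2-fold lower and 5.5% higher. Lysosome and autophagy genes had a median of -0.75, with 8 of 26 measured genes at least 2-fold lower and 0 higher (33 listed). The lysosomal growth factor precursor GRN stood at -1.59 (174 IP and 422 input counts), the protease CTSD at -1.53 (1179 and 2754) and the membrane protein LAMP1 at -1.39. The regulators of autophagosome formation and maturation ATG14 at 0.47 and UVRAG at 0.76 (492 and 235) were at the other end. Glycolysis and glucose uptake genes had a median of -0.60, with 8 of 23 lower and 0 higher. GAPDH stood at -1.65 (10935 and 27594) and ALDOA at -1.58, whereas the lactate transporters SLC16A3 at 0.96 (8329 and 3458) and SLC16A1 at 0.87 were high. Cholesterol genes had a median of -0.32, with 3 of 25 lower and 0 higher, from PMVK at -1.23 (274 and 520) to the sterol demethylase MSMO1 at 0.72 (1106 and 543).

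Liver-specific transcripts ranged widely. Secreted hepatocyte proteins had a median of -0.54, with 7 of 29 measured genes (24.1%) at least 2-fold lower and 0 higher (34 listed). Over all genes, 5.31% were lower and 5.5% higher. RBP4 had 1501 IP and 4013 input counts (-1.73), the thyroxine carrier TTR 2742 and 6060 (-1.45) and the fetuin AHSG 6006 and 12789 (-1.40). The fetal serum protein AFP, a marker of this line, had 160893 and 221549 counts (-0.77), and SERPINA1, the antitrypsin gene, 177169 and 241110 (-0.75). ALB lay nearer the middle at -0.22 (116324 and 109028). The fibrinogen chains FGB at 0.69 (103262 and 51635) and FGA at 0.41 (322329 and 195891), and APOA1 at 0.37 (165107 and 103188), stood above equal shares. RBP4, TTR and AHSG were chosen as the lowest of the list and FGB, FGA and APOA1 as high members. By the median region of a gene, the median of the list was -0.91.

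Liver transcription factors had a median of 0.00. Of 29 measured genes, 1 (3.45%) was at least 2-fold higher and 3 (10.3%) lower, against 5.5% and 5.31% over all genes. ONECUT2, a cut-homeobox factor, stood at 1.37 (1379 IP and 430 input counts) and CREB3L3, a membrane-bound factor of the fasting response, at 0.94 (36189 and 15217). The C/EBP gene CEBPB stood at -1.25 (1953 and 3747), the sterol regulator SREBF2 at -1.05 and the glucose sensor MLXIPL at -1.03. HNF4A, the main hepatocyte factor, stood at 0.37 over 10 regions.

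Short-lived regulators and intronless genes were not uniformly high. Immediate early and other short-lived regulator genes had a median of 0.11, with 0 of 35 measured genes at least 2-fold higher or lower (46 listed). IER5 stood at 0.96 (1797 IP and 747 input counts), JUN, a subunit of AP-1, at 0.85 (7852 and 3508) and EGR1 at 0.74. JUNB, another AP-1 subunit, stood at -0.93 (231 and 355) and the matricellular gene CCN2 at -0.63 (5120 and 6381). MYC, a growth regulator whose transcript is known to carry m6A, stood at 0.11 over the gene, but its 3 regions lay at 0.35, 0.25 and -0.97. Genes known as intronless, a list that shares members with the former, had a median of 0.21, with 2 of 26 (7.69%) higher and 2 lower, near the 5.5% and 5.31% over all genes. PURA stood at 1.18 (2588 and 920) and its paralog PURB at 0.96, against CEBPA at -0.58.

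Signalling and cell cycle genes are read against the 5.5% of all genes that were higher and the 5.31% that were lower. Regulators of Wnt, Notch, TGF-beta and Hippo signalling had a median of 0.11, with 3 of 32 measured genes (9.38%) higher and 1 (3.12%) lower. The Notch ligand JAG1 stood at 1.16 (7278 IP and 2618 input counts), the SMAD corepressor SKIL at 1.03 and APC at 0.80 over 14 regions. The Wnt coreceptor LRP5 stood at -1.27 (3935 and 7679) over 8 regions, and the secreted Wnt inhibitor NOTUM at -0.76. Cell cycle and mitosis genes had a median of 0.16, with 1 of 28 (3.57%) higher and 1 lower. The centromere proteins CENPE at 1.13 (3631 and 1340) and CENPF at 0.94 (16743 and 7019) were highest. The mitotic kinase PLK1 at -1.02 (745 and 1222) was lowest.

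None of the 23 measured m6A writers, erasers and readers reached 2-fold in either direction (25 listed), against 5.5% higher and 5.31% lower over all genes. Their median was 0.20. Of the 8 measured genes of the METTL3 writer complex, 7 lay above equal shares, as did 6102 of all 11697 genes. ZC3H13, which anchors the complex in the nucleus, stood at 0.89 (32435 IP and 14162 input counts), CBLL1 at 0.78, METTL14 at 0.77 (3626 and 1716), RBM15 at 0.67, RBM15B and VIRMA each at 0.51 and WTAP at 0.39. METTL3, the catalytic subunit, was the exception at -0.28 (1969 and 1928; -0.37 to -0.19).

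Both erasers lay below equal shares and below the median of all genes. ALKBH5 had 1764 IP and 2365 input counts (-0.73; -0.82 to -0.64), and FTO 1691 and 1635 (-0.26). Readers of the YTH family stood at 0.55 (YTHDF3), 0.37 (YTHDF2), 0.04 (YTHDC2) and -0.05 (YTHDF1). The intervals of YTHDC2 and YTHDF1 took in 0, as did that of the reader IGF2BP2. The IGF2BP readers, which are known to stabilise mRNA, stood at -0.02 (IGF2BP2), -0.41 (IGF2BP3) and -0.44 (IGF2BP1). METTL16, which methylates U6 RNA, stood at 0.74, and METTL5, which methylates ribosomal RNA, at -0.65. YTHDC1 and PRRC2A had no region under these symbols, alone or together with other genes. Of the 23 genes, 0 had a region at least 2-fold higher, against 17.7% of all genes, and 2 (ALKBH5 and YTHDC2; 8.70%) had one at least 2-fold lower, against 2456 of all 11697 genes. The median of their most enriched regions was 0.57, against 0.40 over all genes, and that of their median regions was -0.07, against -0.10.

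**Figure D4:**
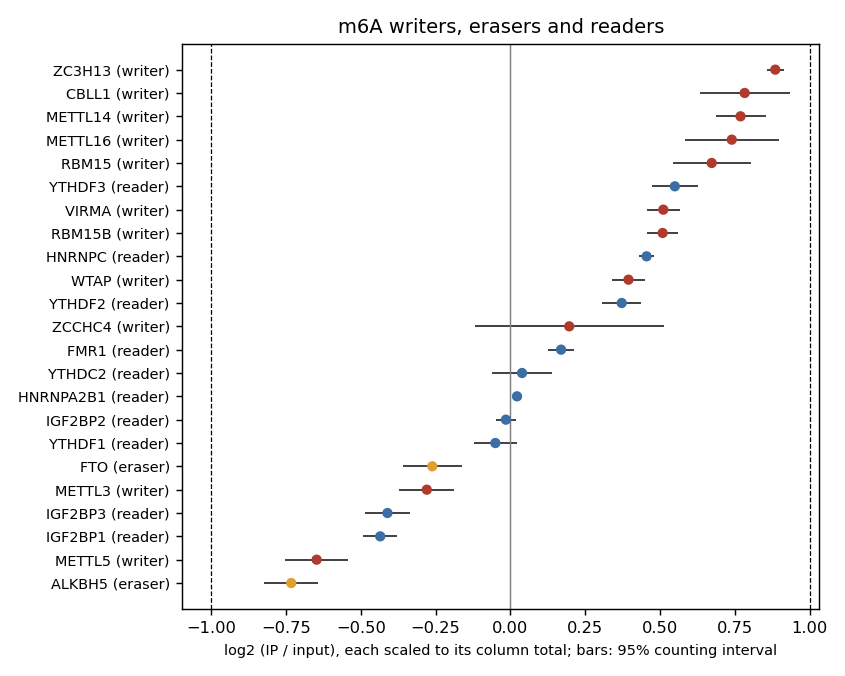
Log2 ratio of IP over input for 23 m6A writers (red), erasers (yellow) and readers (blue), with their regions summed and 95% counting intervals as bars. Dashed lines mark 2-fold, and no gene reaches them. The genes run from ALKBH5 at -0.73 to ZC3H13 at 0.89.

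Non-coding transcripts differed by class. Intergenic transcripts with a LINC symbol had a median of 0.57, with 29 of 117 (24.8%) at least 2-fold higher and 1 lower. They were thinly counted, with a median of 210 counts, and over all genes with at least 200 and under 500 counts the median was 0.10 and 7.96% were higher. LINC00909 stood at 1.32 (629 IP and 203 input counts) and LINC01270 at 1.28 (853 and 283). The 1 lower transcript, LINC02067, had 14065 and 28524 counts (-1.33). Antisense transcripts had a median of 0.25, with 36 of 307 (11.7%) higher and 13 (4.23%) lower, on a median of 337 counts. The lower share was near the 5.31% over all genes, of which 5.5% were higher. Among all genes with at least 200 and under 500 counts, 7.96% were higher and 5.12% lower. CARD8-AS1 stood at 2.18 (219 and 39) and CEBPB-AS1 at -1.49 (1479 and 3345). The sources used here do not say whether the counting used strand, so reads of an antisense gene and its partner cannot be told apart. The most enriched region of WAC-AS1 had 2616 IP and 645 input counts, and that of WAC had 2709 and 658. Whether these share reads was not tested.

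Among long non-coding RNAs of known name, 20 of 29 were measured, with a median of -0.09. Of these, 0 were higher and 1 (5%) lower, against 5.5% and 5.31% of all genes. KCNQ1OT1, an imprinted antisense RNA, had 43 regions, the most of any gene. Of these, 36 lay above equal shares, where the median of all regions was -0.13. At least 2-fold higher were 15 and 2-fold lower 0, against 6.63% and 9.29% of all regions. The summed ratio of KCNQ1OT1 was 0.85. MALAT1, an abundant nuclear RNA known for its m6A sites, had a summed ratio of 0.83 (143523 IP and 64953 input counts), and this rested on 1 region. That region had 129834 and 50528 counts (1.05), another stood at 0.72, and the remaining 6 ran from -0.26 to -1.03. NEAT1, the scaffold of paraspeckles, stood at -0.55 over 11 regions, none above 0.09. SNHG5, a snoRNA host gene, stood at -1.32 (1624 and 3269).

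Measured microRNA genes were few, 12 in number, with 2 (16.7%) at least 2-fold higher and 1 (8.33%) lower, against 5.5% and 5.31% of all genes. All but MIR1282 and MIR3661 had fewer than 500 counts. A stranded mRNA library is not made to capture mature microRNAs, and the label does not say that a region ends at the hairpin. The hairpins are shown because GGAC is a core form of the sequence that the METTL3 complex methylates, so a reader can see whether the labelled RNA holds those letters. MIR6747 had 70 IP and 9 input counts (2.65; 1.64 to 3.84), MIR4271 had 102 and 22 (1.90; 1.23 to 2.64), MIR1282 had 12983 and 10069 (0.06) and MIR762 had 91 and 226 (-1.62; -1.99 to -1.27). Sequences are from RefSeq (GRCh38.p14), 5′ to 3′, with GGAC in capitals, searched on the RNA strand only:
MIR6747: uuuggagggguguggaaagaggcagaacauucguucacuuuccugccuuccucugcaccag
MIR4271: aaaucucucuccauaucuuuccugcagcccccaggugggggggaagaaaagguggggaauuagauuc
MIR1282: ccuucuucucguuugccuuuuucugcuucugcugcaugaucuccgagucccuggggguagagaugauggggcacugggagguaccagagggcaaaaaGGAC
MIR762: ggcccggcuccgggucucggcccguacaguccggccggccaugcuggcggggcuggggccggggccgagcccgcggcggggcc
The hairpins lie on chromosome 11 from 62567011 to 62567071 on the minus strand (MIR6747), chromosome 3 from 49274120 to 49274186 on the plus strand (MIR4271), chromosome 15 from 43793659 to 43793759 on the minus strand (MIR1282) and chromosome 16 from 30893903 to 30893985 on the plus strand (MIR762). Of the 11 labelled genes with a hairpin in the reference, 3 held GGAC, against 27.3% of 1560 human hairpins in that reference. The hairpins of MIR6747, MIR4271 and MIR762 do not hold these letters, which says nothing of the rest of the labelled transcripts.

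The ratio also differed between regions of the same gene. Among 4242 genes with at least 2 regions of 500 or more counts, the highest and lowest region differed by a median of 0.78, and in 1607 of them (37.9%) by at least 2-fold. The standard deviation was 0.57 between regions of 1 gene and 0.72 over all 12674 regions of these genes. In the whole set, 2071 genes had a region at least 2-fold higher, 2456 a region at least 2-fold lower, and 172 had both.

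ARID3A, a DNA-binding factor, showed the widest contrast. Its 5 regions with at least 500 counts lay at 1.48 (1348 IP and 391 input counts), -0.06, -0.28, -1.85 (467 and 1360) and -1.98 (714 and 2271), a difference of 3.45 between the ends. NID1, which encodes a basement membrane protein, ran from 1.23 (1602 and 550) to -1.79 (371 and 1034). ABCC1, a drug efflux pump, spanned 2.77, and ZNF592 spanned 2.68. In CLU, the secreted chaperone clusterin, a single region carried most counts at 1.24 (65118 and 22258), while 2 others stood at -1.27 and -1.45. CACYBP, which binds a ubiquitin ligase, had 6069 and 2471 counts in its highest region (0.99) and 234 and 607 in its lowest (-1.69). These genes were chosen for this difference, so their values are a description.

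**Figure D5:**
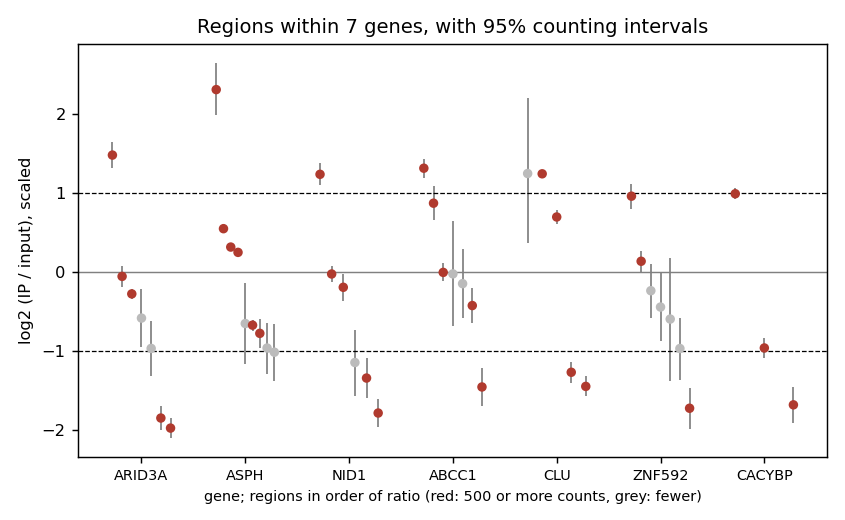
Log2 ratio of IP over input of every region of 7 of the genes with the largest difference between regions of at least 500 counts, with 95% counting intervals as bars. Red points have 500 or more counts, grey points fewer, and dashed lines mark 2-fold. In 5 of the 7 genes, regions stand beyond 2-fold on both sides.

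APOB showed such a contrast on very deep counts. This gene, for the core protein of low-density lipoprotein, had 9 regions. The most counted had 321654 IP and 175134 input counts (0.57) and the highest 174191 and 86856 (0.69), while the lowest had 6149 and 12214 (-1.30). The ratios of the 2 ALB regions differed by just under 2-fold, with 105450 and 90689 counts in one (-0.09) and 10874 and 18339 in the other (-1.06). A gene-level ratio thus averages regions that differ, and weights them by their counts.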

How the data were processed

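RNA of untreated HepG2 cells was measured in 3 IP and 3 input libraries, made with a stranded mRNA kit that uses molecular identifiers, per the labels' protocols. The submitters' processing notes list the tools HISAT2, StringTie and DESeq, with no version. No source used here names the region caller, the genome build or the annotation. The deposited values are raw counts per region, which the authors summed within each condition, per the file headers. Treated columns and the table of expression changes were not used.

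Counts were scaled to column totals over all 46178 regions. Regions with 1 gene label and at least 50 control counts were kept, and counts were summed per gene. Gene names were matched to RefSeq for 11564 of 11697 genes. The planned test was none, since only sums were given. The interval calculation was tested on simulated data.

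Members and the 40 gene lists were chosen with earlier results of these data known. Named were the 15 highest and 15 lowest regions with at least 500 counts, 3 genes from either end of each list among genes with at least 200 counts, 8 genes by spread, hepatocyte markers and the m6A machinery. Further genes were picked once values had been looked at. A few genes covered by the rule are not reported here. Alternatives tried were other scalings, count minimums, fold limits and gene summaries. The software was pandas 2.3.3, scipy 1.17.1 and numpy 2.4.6 under Python 3.11.15.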

Additional observations from a re-analysis of the deposited data

Results flagged for a closer look

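The largest single count of the table lies outside the regions described, because it carries the labels IGF2 and INS-IGF2. It had 986181 IP and 400128 input counts in control cells, a log2 ratio of 0.99, and made up 2.33% of all IP counts and 1.17% of all input counts. It drew attention as a signal above its input in data that the comparisons do not use. IGF2 encodes a fetal growth factor. Of the 836 regions with several genes and at least 50 counts, 54 were at least 2-fold higher and 71 at least 2-fold lower. These calls were near the shares over the single-gene regions, 6.63% higher and 9.29% lower. The median was -0.13 in both sets.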

How the results depend on the processing

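No paired analysis was possible because the counts were summed over libraries, and for the same reason no library could be left out. The count of regions at least 2-fold higher in IP, 2634, was 1514 with a minimum of 200 counts, 4485 with no minimum and a pseudocount of 0.5, 64 at a 4-fold limit, 7106 at 1.5-fold and 758 where the whole counting interval had to pass 2-fold. The count of lower regions, 3692, was 2459 centred on the median region, 1 at 4-fold, 10164 at 1.5-fold and 1584 by the whole interval. Genes at least 2-fold higher, 643, numbered 978 after centring and 2071 by their most enriched region. Genes at least 2-fold lower, 621, numbered 379 and 317 under the same settings. Genes whose regions lay at least 2-fold apart numbered 310 of 1238 with at least 2000 counts per region and 2938 of 6608 (44.5%) with at least 200, in place of 1607 of 4242 (37.9%), with respective median differences of 0.57, 0.90 and 0.78. These limits were chosen after seeing the data. Of 35 lists with at least 5 measured genes, 19 had a median above that of all genes, and 19 to 20 did under the alternatives. Liver transcription factors changed side under 3 alternatives (median region, most enriched region, minimum of 200), the histone lysine enzymes under the median region and antisense transcripts under the most enriched region. At 50 to 59 counts the counting interval reached 0.85 to either side, so calls of shallow regions are the least firm. List medians also moved. By the median region of a gene they were 0.09 for forkhead factors, 0.01 for kinesins, 0.11 for F-box genes, 0.02 for intronless genes, -0.10 for short-lived regulators, -0.04 for the signalling regulators and -0.03 for cell cycle genes, against -0.10 over all genes. With a minimum of 200 counts they were 0.40 for LINC transcripts and -0.93 for glycolysis genes. By the most enriched region they were 0.08 for cholesterol genes and 0.02 for mitochondrial ribosomal proteins, against 0.40 over all genes. All 30 named regions stayed past 2-fold after centring. This was fixed in advance, since the shift was 0.13 and the weakest of them lay at 1.78 and -1.86.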

Other observations

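Several further lists add to the picture. Their calls are read against the 5.5% of all genes that were higher and the 5.31% that were lower. Of 22 listed replication-dependent histone genes, whose transcripts mostly lack a poly(A) tail, 7 were measured, with a median log2 ratio of -0.11 and none past 2-fold. The linker histone H1-2 stood at 0.87 (2570 IP and 1137 input counts) and H1-4 at 0.74. The 17 measured cytochrome P450 genes had a median of 0.38, which was 0.12 with a minimum of 200 counts per region, with CYP2U1 at 1.04 (283 and 111), the bile acid enzyme CYP7A1 at 0.76 (325 and 155) and CYP27A1 at -1.29 (531 and 1050). Solute carriers, which move metabolites and ions across membranes, 193 in number, had a median of -0.05, with 5 at least 2-fold higher and 6 lower, from SLC39A13 at -1.44 (334 and 732) to SLC29A3 at 1.31 (1817 and 591).

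Regulatory families by symbol lay near or above the median of all genes. Calls are again read against 5.5% higher and 5.31% lower over all genes. The 6 measured SOX factors had a median of 0.22 and the 10 KLF factors one of 0.12, with none past 2-fold in either family. SOX4 stood at 0.59 (438 IP and 235 input counts) and KLF16 at -0.98 (171 and 273). Kelch-like genes, many of them substrate adaptors of ubiquitin ligases, had a median of 0.17 over 21 genes, with KLHL11 at 1.12 (610 and 226). TRIM genes had a median of 0.22 over 33 genes, with 1 at least 2-fold higher and 1 lower. The lower one was TRIM28, the corepressor that zinc finger repressors recruit, at -1.47 (1438 and 3221). Histone lysine methyltransferases and demethylases had a median of 0.05 over 33 genes, from KDM4B at -0.67 to KDM6B at 1.15. Genes that host snoRNAs had a median of -0.35 over 16 genes, with SNHG16 at 0.73 (5315 and 2591) and SNHG5 at -1.32. NADH dehydrogenase subunits, which overlap the oxidative phosphorylation list, had a median of -0.54 over 31 genes, with 6 lower. Of 8 metallothioneins only MT2A was measured, at -0.56 (141 and 168), and of 15 mitochondrially encoded transcripts 0 were.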
